A study of Mus musculus with 16 samples.

Results

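The genes described here are the cyclins and the inhibitors of cyclin-dependent kinases (CDKs) that steer mouse cells through the division cycle, followed while bone marrow-derived macrophages became osteoclasts. The set lists 10 genes: the D cyclins Ccnd1, Ccnd2 and Ccnd3, the E cyclins Ccne1 and Ccne2, the mitotic cyclins Ccna2 and Ccnb1, and the inhibitors Cdkn1a, Cdkn1b and Cdkn2c. A gene was read from array features that name it alone, and 8 of the 10 genes had 1 such feature each, among 22180 genes read in this way. Ccne2 shares its feature with another gene symbol and no feature names Ccnb1, so neither has a value here. All 8 genes passed the filter on low values and are among the 15526 genes tested.

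D cyclins are made in answer to growth factors and pair with CDK4 and CDK6 to inactivate the retinoblastoma protein, which releases E2F transcription factors. Cyclin E with CDK2 then starts DNA replication, cyclin A carries the cell through S phase into mitosis, and cyclin B drives mitosis itself. The CIP/KIP inhibitors p21 (Cdkn1a) and p27 (Cdkn1b) bind cyclin and CDK complexes, and the INK4 inhibitor p18 (Cdkn2c) binds CDK4 and CDK6. Osteoclasts form by fusion of macrophage precursors that divide under macrophage colony-stimulating factor (M-CSF) and leave the cycle as they fuse.

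Bone marrow cells from femurs and tibias of male C57BL/6 mice, 5 weeks old, were grown into macrophages, and every group had M-CSF. At 0 h, cells of 2 arrays had received M-CSF with DW (the labels' name for the control treatment) and no RANKL, the cytokine that induces osteoclasts. The other 14 arrays had RANKL, with DW (3, 6, 12, 24, 48 and 72 h) or with 1 mM dimethyl α-ketoglutarate (αKG, a cell-permeable ester of a tricarboxylic acid cycle intermediate; 0.5, 1, 3, 6, 12, 24, 48 and 72 h). The labels join neighbouring times into phases, which gives 8 groups of 2 arrays: 0 h; with DW, an early group of 3 and 6 h, an intermediate one of 12 and 24 h and a late one of 48 and 72 h; the matching 3 groups of the αKG arm; and, for αKG alone, a fast group of 0.5 and 1 h. Each condition and time is 1 array, and the labels do not say whether arrays came from separate cultures or animals or how many mice were pooled. P-values therefore measure the spread between these arrays, which may be technical and, within a phase, includes time. In the tests of time steps this spread also includes any αKG effect that changes with time.

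The cultures carried the marks of osteoclast formation. Acp5, the tartrate-resistant acid phosphatase, read 6.61 and 6.64 on the log2 scale at 0 h, 11.89 at 72 h with DW and 10.87 at 72 h with αKG. Ctsk, the bone-degrading cathepsin K, read 5.72 and 5.45 at 0 h, 12.58 at 72 h with DW and 11.50 with αKG. The mean level of 12 osteoclast markers ranged from 5.67 to 5.71 at 0 h, from 9.46 to 10.95 in late DW and from 7.86 to 9.20 in late αKG arrays. The mean of 12 macrophage markers read 10.95 and 10.98 at 0 h, between 9.95 and 10.59 in late DW and between 10.33 and 10.70 in late αKG arrays. That of 12 neutrophil markers lay between 7.49 and 7.52 at 0 h and between 5.34 and 5.47 in late DW, so markers of another marrow cell type were lower at those hours, and their part in the results below was not tested. In bulk RNA, here and in all values below, fewer cells of a type and less RNA per cell cannot be told apart. The mean of 9 dendritic cell markers lay between 5.93 and 6.27, and mean levels of T and NK cell, B cell, erythroid, stromal and mast cell markers lay between 3.45 and 5.15 on every array. The DW array at 72 h stood apart from the rest, with a mean correlation of 0.928 with the other arrays.

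**Figure D1:**
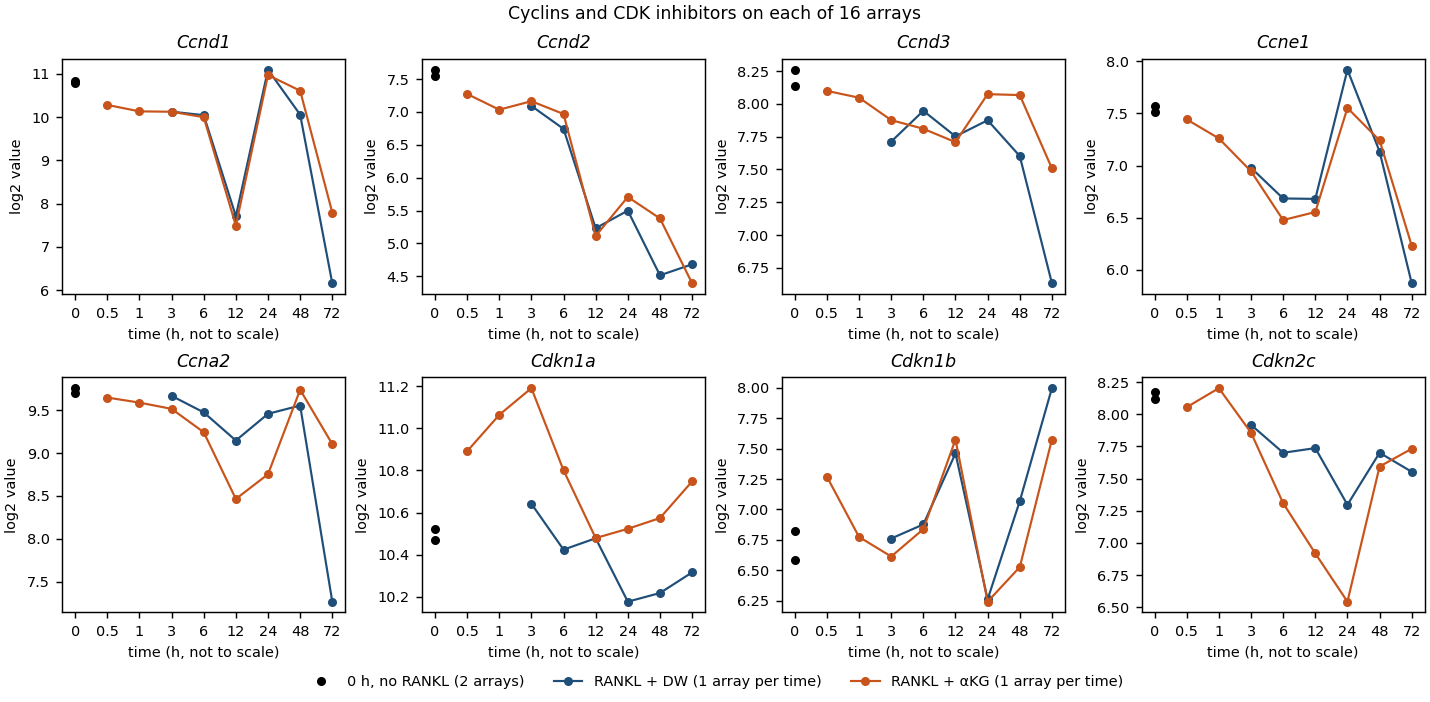
Log2 value of each measured cyclin and CDK inhibitor (y axis, own range per gene) against time in hours (x axis, evenly spaced and not to scale). Black points are the 2 arrays at 0 h, blue the RANKL and DW arrays and orange the RANKL and αKG arrays, 1 per time. Ccnd1 is low at 12 h and 72 h in both arms, where Cdkn1b is high, and Ccnd2 steps down at 12 h and stays low.

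Ccnd1, cyclin D1, had the widest swing of the 8 genes. It read 10.84 and 10.78 at 0 h, and with DW 10.12, 10.04, 7.71, 11.09, 10.06 and 6.16 at 3, 6, 12, 24, 48 and 72 h. With αKG it read 10.28, 10.13, 10.12, 10.00, 7.49, 10.97, 10.61 and 7.79 at 0.5, 1, 3, 6, 12, 24, 48 and 72 h. The low arrays were those at 12 h and 72 h in both arms, and the values at 24 h were back at or above those of 0 h. From the lowest to the highest array the values spanned 4.94 log2, a 30.6-fold range that 99.8% of the tested genes did not reach. In the GRCm38.p6 build Ccnd1 lies at chr7:144929931-144939831, Ccnd2 at chr6:127125162-127152188 and Ccnd3 at chr17:47505051-47599689; where in a gene its probes lie was not analysed here.

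Ccnd2, cyclin D2, fell early and did not come back. It read 7.55 and 7.64 at 0 h, and with DW 7.09, 6.74, 5.23, 5.50, 4.51 and 4.68 at 3, 6, 12, 24, 48 and 72 h. With αKG it read 7.27, 7.03, 7.16 and 6.97 at 0.5, 1, 3 and 6 h, then 5.11, 5.71, 5.38 and 4.39 at 12, 24, 48 and 72 h. Every array from 12 h onwards lay below every earlier array. The late DW values and the αKG value at 72 h lay below the array medians (4.84 to 4.93), near the filter limit of 4.34. Whether they stood above background could not be set, so fold sizes that rest on them are uncertain. The range of 3.25 log2 (9.49-fold) was the second widest of the 8 genes. Ccnd3, cyclin D3, moved least among the D cyclins: 8.13 and 8.26 at 0 h, between 7.60 and 7.95 from 3 to 48 h with DW, and 6.63 at 72 h with DW. With αKG Ccnd3 stayed between 7.71 and 8.10 up to 48 h and read 7.51 at 72 h, so the DW array at 72 h was the low one.

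Ccne1, cyclin E1, which with CDK2 opens S phase, came back at 24 h after a dip and was lowest at 72 h. It read 7.57 and 7.52 at 0 h, and with DW 6.98, 6.68, 6.68, 7.92, 7.13 and 5.87 at 3, 6, 12, 24, 48 and 72 h. With αKG it read 7.44, 7.26, 6.95 and 6.48 at 0.5, 1, 3 and 6 h, then 6.55, 7.55, 7.24 and 6.23 at 12, 24, 48 and 72 h. The highest array in each arm after the first hour was that of 24 h, and the lowest was that of 72 h. Ccna2, cyclin A2, was steadier until the end: 9.70 and 9.76 at 0 h, and with DW 9.67, 9.48, 9.15, 9.46, 9.56 and 7.27 at 3, 6, 12, 24, 48 and 72 h. With αKG Ccna2 went from 9.65 at 0.5 h down to 8.46 at 12 h and 8.75 at 24 h, then to 9.74 at 48 h and 9.11 at 72 h. Its low point was at 72 h with DW and at 12 h with αKG. Ccne1 lies at chr7:38097984-38107490 and Ccna2 at chr3:36564865-36573038.

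Cdkn1b, which encodes p27, was high where Ccnd1 was low. It read 6.59 and 6.82 at 0 h, and with DW 6.76, 6.88, 7.46, 6.26, 7.07 and 8.0 at 3, 6, 12, 24, 48 and 72 h. With αKG it read 7.27, 6.77, 6.61 and 6.84 at 0.5, 1, 3 and 6 h, then 7.57, 6.24, 6.53 and 7.57 at 12, 24, 48 and 72 h. In both arms the 24 h array was the lowest, and the arrays at 12 h and 72 h were the highest. The 2 arrays at 0 h differed by 0.23 log2 in this gene, more than in any of the other 7.

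Cdkn1a, which encodes p21, had the narrowest range, 1.01 log2. It read 10.47 and 10.52 at 0 h, between 10.18 and 10.64 on the 6 DW arrays and between 10.48 and 11.19 on the 8 αKG arrays, with the highest at 3 h. Cdkn2c, which encodes p18, read 8.17 and 8.12 at 0 h and between 7.30 and 7.92 on the DW arrays. With αKG it went from 8.05 at 0.5 h and 8.20 at 1 h to 7.86, 7.31, 6.92 and 6.54 at 3, 6, 12 and 24 h, and back to 7.59 at 48 h and 7.73 at 72 h. The low Cdkn2c arrays were thus those of the αKG arm at 12 and 24 h. Cdkn1a lies at chr17:29090979-29100722, Cdkn1b at chr6:134920401-134925525 and Cdkn2c at chr4:109660876-109666756.

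Cdkn1b and Ccne1 changed in opposite directions at both the 24 h and the 72 h steps described next, and each has 1 start site in RefSeq's promoter table (GRCm38.p6), so the 250 bases before each start are shown. The windows are chr6:134920151-134920400 on the plus strand for Cdkn1b and chr7:38107491-38107740 on the minus strand for Ccne1, both printed 5′ to 3′ along the gene, with capitals for a CCAAT box.
Cdkn1b: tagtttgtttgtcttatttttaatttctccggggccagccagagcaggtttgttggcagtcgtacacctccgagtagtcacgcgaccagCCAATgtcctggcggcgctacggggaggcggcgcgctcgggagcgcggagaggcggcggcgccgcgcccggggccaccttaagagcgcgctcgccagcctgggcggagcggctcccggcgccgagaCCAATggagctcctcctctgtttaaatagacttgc
Ccne1: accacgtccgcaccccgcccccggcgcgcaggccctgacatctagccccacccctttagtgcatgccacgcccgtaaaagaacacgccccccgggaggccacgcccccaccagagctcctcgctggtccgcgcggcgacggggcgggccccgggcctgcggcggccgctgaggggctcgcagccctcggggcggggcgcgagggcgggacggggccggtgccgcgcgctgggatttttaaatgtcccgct
The Cdkn1b window holds 2 CCAAT boxes, 161 and 35 bases before the start. The letters searched on both strands were CCAAT for the CCAAT box, TTTGAA for the cell cycle homology region, and for E2F sites TTTCCCGC or alternatively TTTGGCGC. Of 32851 promoter windows of this length, 33.8% hold the CCAAT box, 16% the cell cycle homology region, 0.895% the first and 0.417% the second E2F site. The Ccne1 window holds none of these letters, which says nothing of other spellings of the same sites. Windows for 6 of the 10 genes were in the table; besides these, 1 of the 2 Ccnd3 windows holds a CCAAT box and the Ccnb1 window holds 2.

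The changes from one time to the next were then tested over the 12 arrays of the shared times (3 to 72 h). Arm and time were the terms of the fit, since the DW and αKG arrays of a time differ in treatment and are not replicates. At 12 h cyclin D1 and D2 fell, at 24 h cyclin D1 and E1 rose while p27 fell, and at 72 h cyclins D1, D3 and E1 fell while p27 rose. Between 3 and 6 h and between 24 and 48 h no gene of the set passed. Changes below are log2 differences ± SE, p-values were adjusted over all 15526 genes in limma (Benjamini-Hochberg), and a call means an adjusted p under 0.05. The fit takes the step as equal in both arms, so its standard errors and p-values include any αKG effect that changes with time. Anything else particular to a harvest time cannot be told apart from time.

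From 6 to 12 h Ccnd1 fell by 2.42 ± 0.37 (5.35-fold, adjusted p = 0.0118) and Ccnd2 by 1.68 ± 0.23 (3.21-fold, adjusted p = 0.00699), 2 of 8 genes against 3.01% of all tested genes. Both arms moved alike: Ccnd1 changed by -2.33 with DW and -2.51 with αKG. Cdkn1b went up by 0.66 ± 0.16 and missed the threshold (adjusted p = 0.0647), although without the 72 h pair of arrays its adjusted p was 0.0265. At this step 1 of 12 macrophage and 1 of 12 neutrophil markers rose.

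From 12 to 24 h Ccnd1 rose by 3.43 ± 0.37 (10.8-fold, adjusted p = 0.000303) and Ccne1 by 1.12 ± 0.16 (2.17-fold, adjusted p = 0.00131), while Cdkn1b changed by -1.27 ± 0.16 (2.41-fold lower, adjusted p = 0.000696). These 3 of 8 genes stand against 20.7% of all genes, since this step moved a large part of the transcripts measured. The arms gave 3.38 and 3.48 for Ccnd1, 1.24 and 1.00 for Ccne1, and -1.20 and -1.33 for Cdkn1b with DW and αKG. At this step 8 of 12 neutrophil and 3 of 12 macrophage markers fell and 2 of 12 osteoclast markers rose, and their part was not tested. Ccnd2 did not return (0.43 ± 0.23, adjusted p = 0.235), and Ccna2 changed by 0.30 ± 0.49.

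From 24 to 48 h 0 of 8 genes passed in limma, against 1.11% of all genes. With an unadjusted p under 0.05 stood 4 of the 8 (Ccnd2, Ccne1, Cdkn1b and Cdkn2c) and 2076 of all 15526 tested genes. Without the 72 h pair, which is no part of this difference, Ccnd1 (-0.70, adjusted p = 0.0356) and Ccne1 (-0.55, adjusted p = 0.044) passed. At this step 9 of 12 neutrophil markers fell and 6 of 12 osteoclast markers rose, and their part was not tested. From 3 to 6 h 0 of 8 genes passed, as did 0% of all genes (1254 of them had an unadjusted p under 0.05), while Ccne1 and Cdkn1a stood at an unadjusted p under 0.05.

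From 48 to 72 h Ccnd1 fell by 3.36 ± 0.37 (10.3-fold, adjusted p = 0.000567), Ccne1 by 1.14 ± 0.16 (2.20-fold, adjusted p = 0.00187) and Ccnd3 by 0.76 ± 0.21 (1.70-fold, adjusted p = 0.032), and Cdkn1b rose by 0.99 ± 0.16 (1.98-fold, adjusted p = 0.0034). These 4 of 8 genes stand against 19.6% of all genes. The Ccnd3 call was lost without the 3 h pair (adjusted p = 0.0512) or the 24 h pair (adjusted p = 0.051). Ccna2 did not pass (-1.46 ± 0.49, adjusted p = 0.0648): the change was -2.29 with DW and -0.63 with αKG, so the arms were not alike. The DW array at 72 h, the one that stands apart, enters every value of this step, and the αKG arm alone gave -2.82 for Ccnd1, -1.01 for Ccne1, -0.56 for Ccnd3 and 1.05 for Cdkn1b. At the same step 6 of 12 macrophage and 6 of 12 osteoclast markers rose, 5 of 12 neutrophil markers fell and 1 rose; their part in these changes was not tested.

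**Figure D2:**
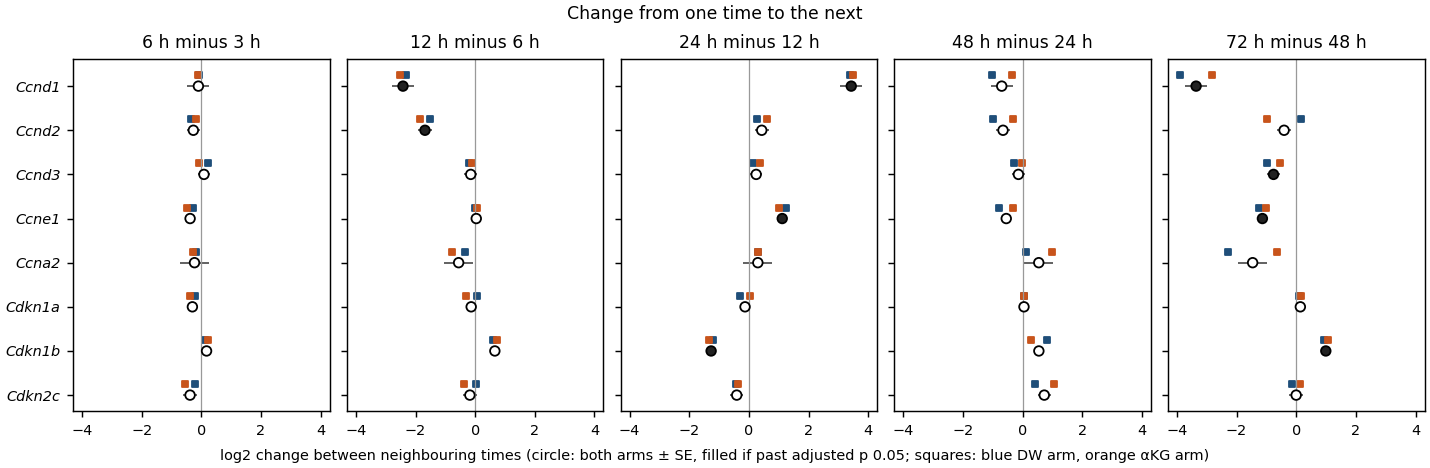
Log2 change of each gene (rows) over 5 steps between neighbouring times (panels, x axis in log2 units). Circles are the estimate over both arms with its standard error, filled where the adjusted p is under 0.05; blue and orange squares are the change within the DW and the αKG arm. Filled circles stand at Ccnd1 in the 12, 24 and 72 h panels and at Cdkn1b in the 24 and 72 h panels, on opposite sides of 0.

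Other cell cycle genes were read from 10 lists of related genes, with 209 entries. The median change of all tested genes lay between -0.01 and 0.02 in each of the 18 comparisons made, and the share of all genes called at a step is as given above. Of 28 tested genes of DNA replication and S phase, 20 rose and 0 fell from 12 to 24 h (median 1.13), among them Cdt1 (1.52 ± 0.18), which licenses replication origins, Cdc6 (2.05 ± 0.33), Mcm2 (1.70 ± 0.28), a subunit of the replicative helicase, and Orc1 (0.97 ± 0.16). From 48 to 72 h 25 of the 28 fell (median -1.37), led by Mcm2 (-2.11 ± 0.28), Cdc6 (-2.02 ± 0.33), the flap endonuclease gene Fen1 (-1.43 ± 0.25) and Cdt1 (-1.02 ± 0.18). From 6 to 12 h 0 of the 28 passed, with 27 below 0 (median -0.26), and 1 fell without the 72 h pair. Their high point was at 24 h, where Ccne1 was highest after the first hour. The list's mean then read 8.75 with DW and 8.47 with αKG, against 8.42 and 8.47 at 0 h, so with αKG it was back at the 0 h level.

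Mitosis genes kept another time. Of 29 tested, 0 rose and 1 fell from 12 to 24 h (the centromere histone Cenpa, -0.76 ± 0.23), and from 24 to 48 h 1 passed (Cenpa again, 1.16 ± 0.23), while 29 of 29 lay above 0 (median 0.65), at the step where the neutrophil and osteoclast markers moved as given above. From 48 to 72 h 8 fell (median -1.06), among them Incenp (-0.91 ± 0.22), Mad2l1 (-1.32 ± 0.32), Bub3 (-0.60 ± 0.15) and Bub1 (-1.61 ± 0.43), which serve chromosome attachment and its checkpoint. If the 3 h pair is left out 4 fell, and 5 if the 6 h pair is. Without the 72 h pair 3 rose and 4 fell from 12 to 24 h. From 24 to 48 h the number that rose ranged from 0 to 16 over the alternatives tried. Ccnb2, a B cyclin outside the set, changed by -1.46 ± 0.37 from 12 to 24 h (adjusted p = 0.0207) and by 1.77 ± 0.37 from 24 to 48 h (adjusted p = 0.0622).

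The kinases that the cyclins bind followed Ccnd1 in part. Cdk6, a partner of the D cyclins, changed by -1.43 ± 0.12 at 12 h, 1.75 ± 0.12 at 24 h and -1.42 ± 0.12 at 72 h, passing at each step (adjusted p = 0.00159, 4.86e-05 and 0.000282). Of 14 cell cycle kinases and phosphatases tested, 1 fell at 12 h, 6 rose at 24 h and 10 fell at 72 h. Without the 72 h pair 7 fell at 12 h, and 7 rose and 3 fell at 24 h. Cdc25a, which removes inhibitory phosphates from CDK2, passed at both of the latter (1.5 ± 0.16 and -1.45 ± 0.16), as did Cdc7 (1.28 and -1.29) and Wee1 (1.12 and -1.06). Of 20 genes of the retinoblastoma, E2F and DREAM group, 8 rose and 2 fell at 24 h, and 2 rose and 11 fell at 72 h (1 rose if the 3 h or the 12 h pair is left out). Mybl2, an activator of mitotic genes, changed by 1.67 ± 0.25 and -1.87 ± 0.25, the E2F partner Tfdp1 by 1.27 ± 0.22 and -1.52 ± 0.22, and Rbl2, which encodes the p130 protein that holds E2F genes silent in resting cells, by -1.04 ± 0.15 at 24 h.

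Regulators of the D cyclins and of p27 were tested in the same way. Myc, a transcription factor of growth, changed by -1.90 ± 0.28 at 12 h, 3.90 ± 0.28 at 24 h and -2.06 ± 0.28 at 72 h, the same directions as Ccnd1. Foxo3, a transcription factor that can switch on the p27 gene, changed by -0.79 ± 0.13 at 24 h and 0.54 ± 0.13 at 72 h, the same directions as Cdkn1b. Of the 24 regulators tested, 0 rose and 2 fell at 12 h (Id2, -1.55 ± 0.17, and Myc), 4 rose and 2 fell at 24 h, and 4 rose and 4 fell at 72 h. Without the 72 h pair 1 rose and 5 fell at 12 h, and 6 rose and 5 fell at 24 h. The counts at 72 h were 5 and 1 if the 3 h pair is left out, and 4 and 2 if that of 12 or 24 h is. In the M-CSF pathway 1 of 17 genes fell at 12 h, the transcription factor gene Ets2 (-2.44 ± 0.27), which then rose by 1.87 ± 0.27 at 24 h and fell by 1.74 ± 0.27 at 72 h. It was the 1 gene of this pathway that rose at 24 h, while 5 fell, and at 72 h 3 rose and 2 fell. Without the 72 h pair 2 fell at 12 h and 8 at 24 h. Csf1r, the M-CSF receptor, changed by 0.79 ± 0.14 at 72 h (adjusted p = 0.0045).

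Among other cyclins Ccng2, an unconventional cyclin known from cells at rest, moved with Cdkn1b: 1.08 ± 0.19 at 12 h, -2.35 ± 0.19 at 24 h and 1.08 ± 0.19 at 72 h (adjusted p = 0.0217, 9.87e-05 and 0.005). Of 12 other cyclins 1 rose at 12 h, 1 rose and 4 fell at 24 h, and 2 rose and 2 fell at 72 h; the riser at 24 h was lost without the 3 h or the 48 h pair. Of 19 p53 target genes 1 rose at 12 h, 4 rose and 6 fell at 24 h, and 5 rose and 4 fell at 72 h (without the 72 h pair 3 rose and 1 fell at 12 h). Trp53inp1, a stress gene of that list, changed by 1.36 ± 0.19, -2.62 ± 0.19 and 2.21 ± 0.19 at these steps, while Cdkn1a, itself a p53 target, changed by -0.13, -0.13 and 0.14 and passed at none. Of 22 genes that mark cyclins for destruction, 1 fell at 12 h, 2 rose at 24 h and 8 fell at 72 h. Without the 72 h pair 3 fell at 12 h, and 5 rose and 4 fell at 24 h. At 12 h 0 fell without the 3 h or the 48 h pair, at 24 h 1 rose without either of these pairs, and at 72 h 5 fell without the 3 h or the 12 h pair. Of 7 other CDK inhibitors 0 passed at 12 h and 24 h and 1 fell at 72 h, Cdk2ap1 (-0.64 ± 0.12); without the 72 h pair 2 fell at 24 h.

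**Figure D3:**
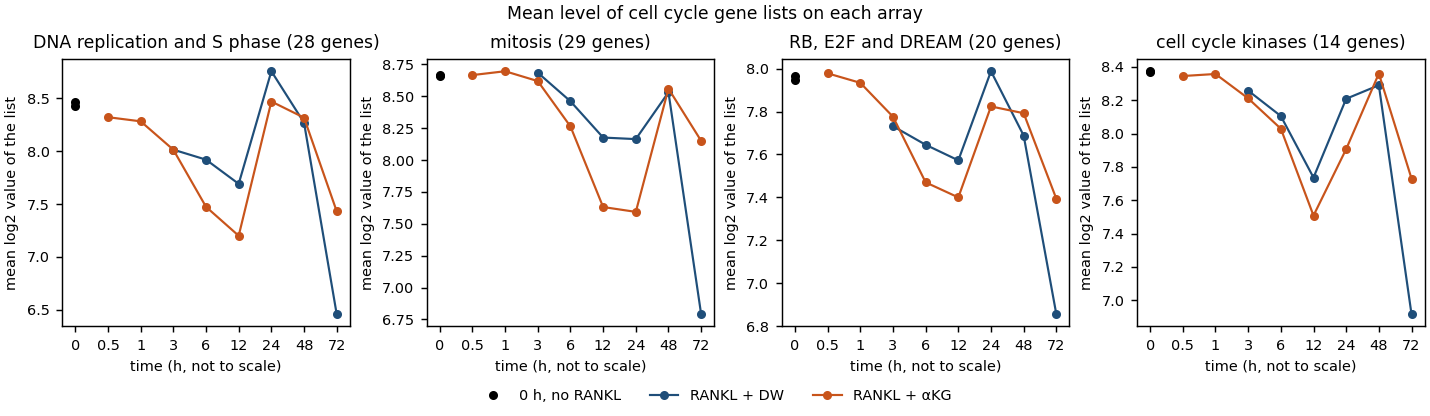
Mean log2 value of 4 lists of cell cycle genes on each array (y axis) against time in hours (x axis, not to scale); black points are 0 h, blue RANKL with DW and orange RANKL with αKG. The replication list is highest at 24 h in both arms, at 8.75 with DW and 8.47 with αKG, against 8.42 and 8.47 at 0 h. The mitosis list is lower at 12 and 24 h than at 48 h in both arms, and with DW it is lowest at 72 h (6.79).

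Against the 0 h arrays, the question was how RANKL with DW changed these genes by phase. Cyclin D2 was lower from the intermediate phase on, and cyclin D3 in the late phase; the genes that swing within a phase did not pass. In early DW arrays 0 of 8 genes passed (0.341% of all genes), and Ccnd2 had an unadjusted p under 0.05. In intermediate DW arrays Ccnd2 fell by 2.23 ± 0.29 (adjusted p = 0.00769), 1 of 8 genes against 0.779% of all. In late DW arrays Ccnd2 fell by 3.0 ± 0.29 (7.97-fold, adjusted p = 0.000248) and Ccnd3 by 1.08 ± 0.28 (2.11-fold, adjusted p = 0.0421), 2 of 8 against 6.64% of all. Ccnd1 stood at -2.70 with a standard error of 1.45, which reflects how far apart the 2 arrays of a phase lie, and its adjusted p was 0.323.

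The late Ccnd2 call held without any one array. The intermediate one was lost without the first 0 h array (adjusted p = 0.09) or the second (adjusted p = 0.0824). The Ccnd3 call was lost without either 0 h array (adjusted p = 0.161 and 0.231) or without the 72 h array (-0.59, adjusted p = 0.253). Without the 48 h array, with the 72 h array taken to vary as the other groups do, Ccnd3 stood at -1.56 (adjusted p = 0.00225) and Ccna2 passed as well (-2.47 against -1.32 with both, adjusted p = 0.00029 against 0.175).

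In late DW arrays the lists of replication and mitosis had 0 of 28 and 0 of 29 genes past the threshold, with all 28 and all 29 below 0 (medians -1.06 and -1.06). Without the 48 h array 18 and 28 of them fell (medians -2.01 and -1.94). E2f2, an activating E2F, was the 1 of 20 retinoblastoma and E2F genes that fell (-1.40 ± 0.25), and Cdk2ap2 (1.22 ± 0.27) was the 1 of 7 other CDK inhibitors that rose. Without the first 0 h array or the 72 h array 0 of the 20 fell, and without the 48 h array 8 did. Of the 7 inhibitors 0 rose without either 0 h array or the 48 h array, and without the latter 3 fell. In these arrays 10 of 12 osteoclast markers rose, and 10 of 12 neutrophil and 3 of 12 macrophage markers fell; their part in these values was not tested.

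With αKG the comparison with 0 h gave 0 of 8 genes in the fast group (0% of all genes, 540 of them at an unadjusted p under 0.05), where Cdkn1a stood at 0.48 ± 0.15 with an unadjusted p of 0.00795 and an adjusted p of 1. In the early αKG group 0 of 8 passed as well (0.502% of all), with Cdkn1a at 0.50 ± 0.15 and Cdkn2c at -0.56 ± 0.21 at unadjusted p of 0.00636 and 0.0223. In the intermediate group Ccnd2 fell by 2.18 ± 0.29 (adjusted p = 0.00886) and Cdkn2c by 1.41 ± 0.21 (2.67-fold, adjusted p = 0.0174), 2 of 8 genes against 0.670% of all. In the late group Ccnd2 fell by 2.71 ± 0.29 (6.53-fold, adjusted p = 0.00196), 1 of 8 against 1.43% of all, and this call held without any one array. In these arrays 7 of 12 osteoclast markers rose, and 10 of 12 neutrophil markers and 1 of 12 macrophage markers fell; their part was not tested. The intermediate Cdkn2c call was lost without the first or second 0 h array (adjusted p = 0.184 and 0.171) and without the 12 h or 24 h array (0.0677 and 0.105). That of Ccnd2 was lost without either 0 h array (0.1 and 0.125) or the 12 h array (0.0881). These comparisons share the 0 h arrays with those of the DW arm.

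The αKG arm was set against the DW arm at the 6 times that both hold. In late arrays cyclin D1 and D3 were higher and p27 lower with αKG, while p21 did not pass the threshold. Over the 6 times together 0 of 8 genes passed, against 0.399% of all, and Cdkn1a came nearest (0.34 ± 0.07, higher at 6 of 6 times, by only 0.0006 at 12 h, adjusted p = 0.0762, between 0.0638 and 1 over the alternatives tried). Its differences were 0.55, 0.38, 0.00, 0.35, 0.36 and 0.43 at 3, 6, 12, 24, 48 and 72 h, so the arms read alike at 12 h. Cdkn2c (-0.33 ± 0.13) also had an unadjusted p under 0.05.

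In early arrays 0 of 8 genes passed (0.161% of all), with Cdkn1a at 0.46 ± 0.09 (adjusted p = 0.155). It passed without the 48 h pair (adjusted p = 0.0326) or the 72 h pair (0.037), which are no part of this difference. In intermediate arrays 0 of 8 passed (0.0966% of all). Cdkn2c stood at -0.79 ± 0.13 (unadjusted p = 0.000153, adjusted p = 0.0701) and Ccna2 at -0.69 ± 0.29 (unadjusted p = 0.0394, adjusted p = 0.496). Both passed without the 48 h pair (0.00658 and 0.00234) or the 72 h pair (0.00662 and 0.00193). The Cdkn2c differences were -0.82 at 12 h and -0.75 at 24 h, and those of Ccna2 were -0.68 and -0.71.

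In late arrays Ccnd1 stood higher with αKG by 1.09 ± 0.20 (2.13-fold, adjusted p = 0.019) and Ccnd3 by 0.67 ± 0.14 (1.59-fold, adjusted p = 0.0312), and Cdkn1b changed by -0.48 ± 0.11 (1.40-fold lower, adjusted p = 0.049), 3 of 8 genes against 4.27% of all. The differences at 48 and 72 h were 0.55 and 1.63 for Ccnd1, 0.46 and 0.88 for Ccnd3, and -0.54 and -0.42 for Cdkn1b. Cdkn1a (0.39 ± 0.09, adjusted p = 0.052) and Ccna2 (1.01 ± 0.29, adjusted p = 0.0907) did not pass. The Ccna2 difference was 0.18 at 48 h and 1.84 at 72 h. The DW array at 72 h, the one that stands apart, enters every difference at 72 h. Ccne1 (0.23 ± 0.13), Ccnd2 (0.29 ± 0.23) and Cdkn2c (0.04 ± 0.13) did not pass either, and the Ccnd2 difference was 0.87 at 48 h and -0.29 at 72 h.

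**Figure D4:**
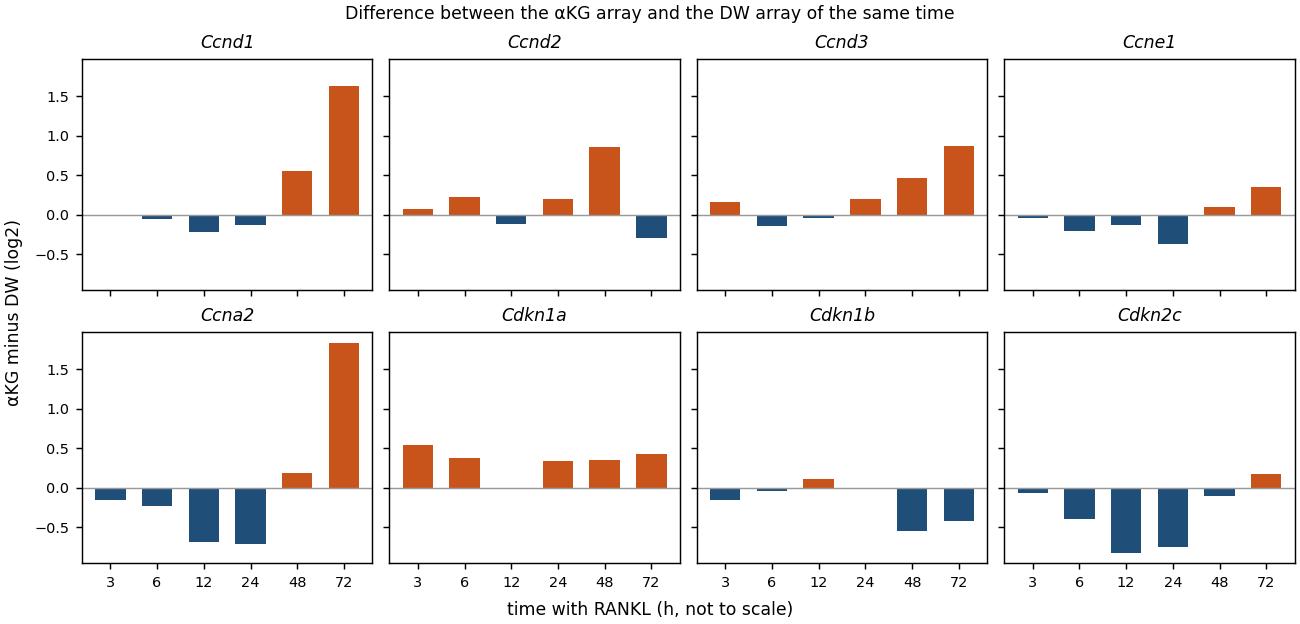
Difference in log2 value between the αKG and the DW array of the same time (y axis) against time in hours (x axis, not to scale), 1 panel per gene, without error bars because each bar is 1 pair of arrays. Ccnd1 and Ccnd3 are highest at 72 h, at 1.63 and 0.88, Cdkn1a lies at or above 0 at all 6 times, and Ccna2 is below 0 up to 24 h and 1.84 at 72 h.

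These late calls depended on which pairs were fitted and on the model. In limma without a trend, or with no time block, 0 of the 8 genes passed. That of Cdkn1b also depended on the filter and the scaling: its adjusted p was 0.0628 with no filter and 0.0568 with median centring. Without the 3, 6, 12 or 24 h pair 0 of the 8 genes passed. These pairs are no part of the late difference, and its estimates stayed the same (1.09 for Ccnd1, 0.67 for Ccnd3 and -0.48 for Cdkn1b). What changed was the spread of the fit and its residual degrees of freedom, which were fewer than the 3 of the full fit. The adjusted p of Ccnd1 then lay between 0.0561 and 0.0619, of Ccnd3 between 0.067 and 0.0713, and of Cdkn1b between 0.0917 and 0.11. Without the 48 h pair Ccnd1 (1.63), Ccnd3 (0.88), Ccna2 (1.84) and Cdkn1a (0.43) passed and Cdkn1b did not (adjusted p = 0.109). Without the 72 h pair Ccnd1 (0.55, adjusted p = 0.0208) and Ccnd2 (0.87, adjusted p = 0.0409) passed, and Ccnd3 (0.46, adjusted p = 0.217) and Cdkn1b (-0.54, adjusted p = 0.134) did not. Whether the αKG difference changed with time was tested as well. Between the late and early phases 0 of 8 genes passed (0.605% of all), with Ccnd1 at 1.12 ± 0.28 (adjusted p = 0.11), and without the 48 h pair Ccnd1 (1.66), Ccnd3 (0.86) and Ccna2 (2.03) passed. Between the late and intermediate phases 0 of 8 passed (0.103% of all), with Ccna2 at 1.71 ± 0.41 (adjusted p = 0.191), Ccnd1 at 1.26 ± 0.28 (0.165) and Cdkn2c at 0.82 ± 0.18 (0.163). At an unadjusted p under 0.05 stood 4 of the 8 genes in the first of these contrasts and 6 in the second. Of all 15526 tested genes, 2271 and 1821 did so.

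The cell cycle lists lay on different sides in the phases without passing gene by gene. In intermediate arrays all 29 mitosis genes and all 28 replication genes were below 0 with αKG (medians -0.59 and -0.36), and 0 passed. In late arrays all 29 and all 28 were above 0 (medians 0.75 and 0.52), and again 0 passed. Without the 48 h pair their medians were 1.49 and 1.03, so the differences were larger at 72 h than at 48 h. This, like the late counts without the 48 h pair below, rests on 1 pair of arrays. Its DW array is the one that stands apart from the rest. In intermediate arrays without the 48 h or the 72 h pair 20 mitosis and 5 replication genes fell. In late arrays Cdc25b, an activator of mitotic CDK (0.90 ± 0.20, adjusted p = 0.0431), was the 1 of 14 kinase genes that rose, and E2f2 (0.90 ± 0.16, adjusted p = 0.0198) the 1 of 20 retinoblastoma and E2F genes. Of the 14 kinase genes 10 rose without the 48 h pair and 0 without any other pair. Of the 20 genes 7 rose when the 48 h pair was left out, and 0 when that of 72 h was.

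Among the regulators in late arrays Klf4, which can switch on the p21 gene, rose with αKG (0.78 ± 0.15, adjusted p = 0.0242), and Nfatc1 (-0.85 ± 0.09, adjusted p = 0.00321) and Prdm1 (-1.20 ± 0.15, adjusted p = 0.00526), transcription factors of osteoclast formation, fell. Without the 12, 24 or 72 h pair 0 regulators rose, and 2 or 3 fell without any one pair. In the same arrays 12 of 12 osteoclast markers, Nfatc1 included, fell and 2 of 12 neutrophil and 2 of 12 macrophage markers rose with αKG; their part in the cyclin values was not tested. Cdkn2b, the INK4 inhibitor p15, was higher with αKG early (0.84 ± 0.12, adjusted p = 0.0366), and its αKG difference was lower late than early by a tested -1.29 ± 0.16 (adjusted p = 0.0189). Plk2, a kinase of the p53 list, was the 1 of 19 genes of that list that rose early (1.67 ± 0.23, adjusted p = 0.0366). Without the 3, 6, 12 or 24 h pair 0 genes of either list passed in these contrasts.

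The genes most like each of the 8 were taken by Pearson correlation over the 16 arrays, several of which share a time, as a description. For Ccnd1 they were Ranbp1 (r = 0.98), Ergic1 (0.98) and Dhrs9 (0.97), and for Ccne1 Mcmbp (0.98), Slbp (0.97) and Chaf1a (0.97). Ccna2 was nearest to Knl1 (0.99), Dlgap5 (0.99) and Ttk (0.99). Slbp, Chaf1a and Ttk are members of the lists above, which are named for replication and mitosis. Ccnd2 was nearest to Cap1 (0.96), Tubb2a (0.96) and Rfk (0.96), and Ccnd3 to Bid (0.95), Kcnab2 (0.94) and Emilin2 (0.92). Cdkn1b was nearest to Pcyt1a (0.96), Trp53inp1 (0.96) and Fam214a (0.95), and Cdkn2c to Hnrnpul1 (0.89), Helz (0.88) and Dbt (0.87). Cdkn1a was nearest to Slc39a12 (0.86), Cmtm8 (0.86) and Mark4 (0.85), and 0 of these 3 were among its nearest when the 0 h arrays were left out, against 2 or 3 for each of the other 7 genes.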

How the data were processed

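RNA of mouse bone marrow-derived macrophages was measured on 16 one-colour whole-transcript arrays. The values are on a log2 scale as deposited by the authors. The base was taken from their range (0.61 to 13.25), and array medians of 4.84 to 4.93 show that the arrays had been brought to one scale. How the probes were summarised and normalized is not given in the sources used here, nor is the build, and signal above background could not be set per gene. Of 33793 features 23521 name 1 gene; the brightest feature per gene was kept, and the lowest 30% of genes by mean (up to 4.34) were left out. Gene positions and promoters are RefSeq's (GRCm38.p6).

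All tests used limma 3.58.1 under R 4.3.3 (lmFit, eBayes with a trend). A run on simulated data checked the code only. There the spread of a gene was capped, and for comparisons with 0 h no time differences were set within a phase. It therefore does not give the rate of false calls in these data. Phases were set against 0 h in 1 fit of 8 groups (8 residual degrees of freedom). For αKG against DW, 12 arrays were fitted with time as a block (5 degrees of freedom, or 3 with 1 effect per phase), and the time steps in the same 12 arrays with arm and time as terms (5 degrees of freedom). Pairing by time comes from the labels; deviations of same-time arrays correlated at 0.50 to 0.75 across genes, and the best match of every array was that of its own time.

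The 10 genes, the gene lists and the marker lists were chosen with earlier results of these data known. All 8 measured genes were followed in every comparison. Of a discussed list up to 4 genes with the smallest p in that comparison were named; for likeness the 3 highest correlations were taken, without predicted, clone-named or small RNA genes. Acp5 and Ctsk served as checks. The contrast of late and intermediate αKG effects was chosen after seeing the values. The alternatives were other filters, quantile normalization, median centring, eBayes in robust form or with no trend, the mean of a gene's features, fits of only the groups compared, no time block, and leaving out each array or pair. The number of arrays limits the precision.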

Additional observations from a re-analysis of the deposited data

How the results depend on the processing

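No value past the threshold changed sign under any alternative run. The calls of Ccnd1 and Ccnd2 at 12 h, of Ccnd1, Ccne1 and Cdkn1b at 24 h, of Ccnd1, Ccne1 and Cdkn1b at 72 h, and of Ccnd2 in late DW and late αKG arrays against 0 h held under every alternative. For a step, only pairs of other times could be left out, which cannot move its estimate. Whether the step calls hold without an array of the step itself was not tested. When only the groups compared were fitted, with 2 residual degrees of freedom, 3 of 8 genes passed in early DW, 0 in intermediate DW, 1 in late DW, 2 in fast αKG, 3 in early αKG and 0 in intermediate αKG arrays, and all-gene counts went from 53 to 775 in early DW, from 1031 to 115 in late DW and from 78 to 794 in early αKG. With no filter 1 gene passed in late DW. For αKG against DW in late arrays 0 of 8 passed without a trend and 0 without the time block, and with no block 3 genes in all passed against 663. Leaving out 1 array or pair gave 0 to 1 genes for intermediate DW, 1 to 3 for late DW, 0 to 1 for intermediate αKG, 0 to 1 for early, 0 to 2 for intermediate and 0 to 4 for late αKG against DW, 0 to 3 for late minus early, and 0 to 2 for 48 h minus 24 h. Over all genes leaving out an array or pair moved the late αKG count from 663 to between 275 and 1882 and the late DW count from 1031 to between 251 and 2179, while the 24 h and 72 h steps stayed between 2900 and 4206 and between 2549 and 2707. The ranges of the steps and of the phases cannot be compared. A step lost only pairs of other times, whereas the phases also lost arrays that enter the difference. Other all-gene counts moved as far. Settings took the intermediate DW count from 121 to 0 at the lowest, intermediate αKG from 104 to 0, fast αKG from 0 to 96, and αKG against DW from 62 to 0 over the 6 times, from 25 to 0 early, from 15 to 0 in the intermediate phase and from 94 to 0 for late minus early, the last 4 with no time block. Left-out arrays or pairs gave 1 to 2 genes for early DW, 4 to 67 for intermediate DW, 1 to 12 for early, 0 to 24 for intermediate and 29 to 116 for late αKG against 0 h, and for αKG against DW 4 to 174 over the 6 times, 0 to 149 early, 0 to 312 intermediate and 1 to 1504 for late minus early. The steps gave 0 to 43 genes at 6 h, 289 to 1246 at 12 h against 468, and 96 to 573 at 48 h against 173. A group left with 1 array was taken to vary like the others. Each time holds 1 array per arm, which limits what can be seen. No paired analysis by replicate number was possible because the labels give the groups no shared numbers; time was the block.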
